A study of Homo sapiens with 6 samples.

Results

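The genes described here are 52 genes of the G1/S transition and of DNA replication. They were chosen by name from a count table of 25445 rows and cover the G1/S cyclins and their kinases, the E2F factors, the proteins that license and fire replication origins, the replicative polymerases, the sliding clamp and the enzymes that finish Okazaki fragments. All 52 had a row. MHCC-97H, a human liver cancer cell line, was treated with 10 μM of compound 6j or with solvent for 16 h, and RNA-seq was performed on 3 libraries per group. The 2 groups, called 6j treated and non-treated below, share the cell line and the culture medium, and a single dose and time were measured. The libraries were made from poly(A) RNA of bulk cells, in a study of liver cancer cell growth and of ferroptosis, an iron-dependent form of cell death. Because these are bulk samples, fewer cells in S phase and less RNA per cell cannot be told apart.

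A cell commits to a new round of division late in G1. D-type cyclins with CDK4 or CDK6, and then cyclin E with CDK2, phosphorylate RB1 and its relatives, which frees the E2F factors to switch on the genes of S phase. The origin recognition complex, CDC6 and CDT1 load the ring of MCM2 to MCM7 on DNA in G1, and CDC45 and the GINS complex turn that ring into a running helicase in S phase. Polymerases, the PCNA clamp and the Okazaki fragment enzymes then copy both strands, and in proliferating cancer cells these genes are usually well expressed.

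Of the 52 genes, 51 passed the filter on low counts, and 15957 rows of the table were tested in all. Total counts were 31533403 to 38018349 per library, and single counts of the 51 genes ran from 113 to 18994. CCND2, the third D-type cyclin, had 5, 3 and 8 counts in the non-treated libraries and 0 in each 6j treated library. It was not tested, and a count of 0 allows up to 3 counts, for counting error only. The liver lineage of the label was not seen in its secreted markers. Of 11 markers of a liver carcinoma line, 9 were under 1 CPM in every library, albumin (ALB) and AFP among them, and the keratins KRT8 and KRT18 carried the list. The labels do not say whether the libraries came from separate cultures. The tests therefore set the group difference against the spread between these libraries only, which may not be that between cultures. Libraries of the same replicate number deviated together from their group means (correlations of 0.171, 0.18 and 0.312), but the labels do not state a pairing. The fit with the replicate number as a block assumes one, and its results are given where they change a call.

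The 51 genes shifted little and mostly downwards. In 6j treated cells 4 genes were lower at an adjusted p under 0.05, which is 7.84% of 51 against 4.37% of all rows tested. They were the D-type cyclins CCND3 and CCND1, the methylation factor UHRF1 and the flap endonuclease FEN1. Without 6j treated replicate 1 the count was again 4, but CCND1 was not among them (adjusted p = 0.0575) and another gene was. The count was 2 without 6j treated replicate 3, and 1 without any other single library. None was higher, against 4.79% of all rows. With the replicate block 16 genes were lower (31.4%, against 13.9% of all rows) and 3 were higher (5.88%, against 13.1% of all rows). Read library by library, all 3 libraries of 6j treated cells lay below the 3 of non-treated cells for 17 genes (33.3%, against 15.8% of all rows) and above them for 2 genes, CDK4 and CDC6 (3.92%, against 16.0% of all rows). The groups overlapped for the other 32 genes.

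The log2 fold changes, 6j treated over non-treated, were small. Their median was -0.14, with quartiles of -0.24 and -0.01 and a range of -0.57 to 0.29, and it was -0.14 with the replicate block. Without 6j treated replicate 3 it was -0.08, and without any other single library it was -0.17 to -0.11. Of the 51 values 38 were negative and 13 positive, while over all rows 7871 were negative and 8086 positive with a median of 0.00. The median standard error was 0.09, and 16 genes lay within 0.1 of zero. A DEG had to change more than 1.5-fold and also pass the threshold of 0.05. No gene did so in edgeR, in edgeR with the block or in DESeq2, against 3.6% of all rows in edgeR. At an unadjusted p under 0.05 there were 16 genes (31.4%, against 26.2% of all rows). CCND3, at a log2 fold change of -0.57, and CCNE1, at -0.56, lay nearest to the fold threshold of 0.58.

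**Figure D1:**
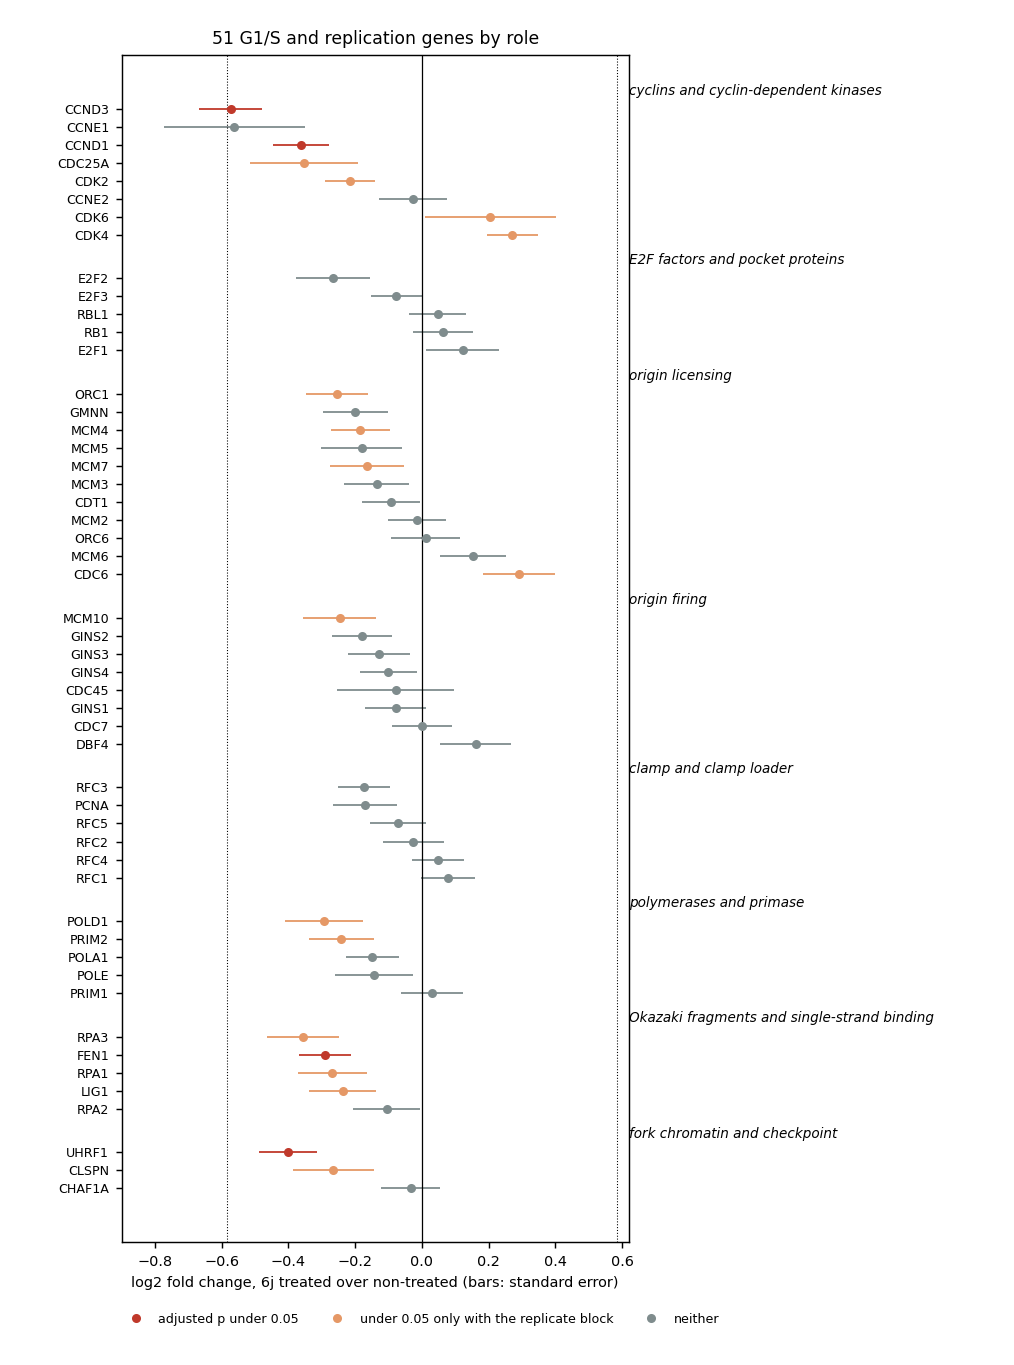
Each point is the log2 fold change of a gene, 6j treated over non-treated (3 libraries each), with its standard error as a bar, in groups by role, and dotted lines mark a fold change of 1.5. Most of the 51 points lie left of zero, 4 are past the threshold in the edgeR fit without the replicate block, and CDK4, CDK6 and CDC6 lie on the right and are past it in the edgeR fit with the block but not in the one without.

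Of the 8 tested cyclin and kinase genes 2 fell, the D-type cyclins CCND3 and CCND1 (25%, against 4.37% of all rows). None rose, against 4.79% of all rows. With the block CDC25A and CDK2 were also lower, 4 in all (50%, against 13.9% of all rows). CDK4 and CDK6 were higher with it (25%, against 13.1% of all rows). CCND3 encodes cyclin D3 (ENSG00000112576, chr6:41934933-42050357, minus strand, GRCh38). Its level was 66.2, 75.1 and 69.1 CPM in the non-treated libraries and 48.5, 50.3 and 42.5 CPM in the 6j treated ones. The highest 6j treated library was below the lowest non-treated one, and the mean went from 70.1 ± 4.52 to 47.1 ± 4.06 CPM (SD, n = 3). CCND3 fell 1.49-fold (log2 fold change -0.57, SE 0.09, adjusted p = 0.0112). It is the 1 gene of the 51 that stayed past the threshold in all 6 fits that left out a library, and its adjusted p was 1.89e-05 to 0.0492 over the alternatives. Within replicate numbers 1, 2 and 3 the log2 difference was -0.45, -0.58 and -0.70.

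CCND1 encodes cyclin D1 (ENSG00000110092, chr11:69641087-69654474, plus strand), the D-type cyclin most often amplified in tumours. It measured 136, 125 and 134 CPM in non-treated cells and 98.7, 98.1 and 111 CPM in 6j treated cells, with no overlap. Its mean went from 131.9 ± 6.07 to 102.6 ± 7.21 CPM (SD, n = 3). The decrease was 1.29-fold (log2 fold change -0.36, SE 0.08, adjusted p = 0.0307). The call was lost in 5 of the 6 fits that left out a library, with an adjusted p of up to 0.139 without non-treated replicate 1, and held without 6j treated replicate 3. CCND1 shares exon positions with LTO1 on the other strand, and the library protocol names no strand marking, so reads of the 2 genes cannot be told apart there.

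CDK4 is a kinase partner of the D-type cyclins. Its level was 137, 136 and 140.3 CPM in non-treated cells and 177, 165 and 158 CPM in 6j treated cells, so all 3 treated libraries were higher. The log2 fold change was 0.27 (SE 0.08) at an adjusted p of 0.0579, with a range of 0.00983 with the block to 0.201 over the alternatives. It was also past the threshold in DESeq2 (adjusted p = 0.0203) and with Ensembl rows only (adjusted p = 0.0423). CDK4 shares positions with TSPAN31 on the other strand. CDK6, the second partner kinase, spread widely in both groups, with 177, 162 and 244 CPM against 192, 200.1 and 279 CPM. Replicate 3 was highest in each group and the groups overlapped. Its log2 fold change of 0.20 (SE 0.20) had an adjusted p of 0.57, and 0.0293 with the block in a range of up to 0.976.

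Cyclin E drives CDK2 at the end of G1. CCNE1 was read by few counts, 190, 144 and 201 in non-treated cells and 157, 115 and 113 in 6j treated cells. In CPM its groups did not overlap, at 5.04, 4.57 and 5.77 against 4.09, 3.04 and 3.29. Its means were 5.13 ± 0.607 and 3.47 ± 0.546 CPM (SD, n = 3). Its log2 fold change of -0.56 had the largest standard error of the 51 genes, 0.21, and an adjusted p of 0.129. CCNE2 was close to level at 29.2 ± 2.19 and 28.7 ± 1.82 CPM (log2 fold change -0.03, adjusted p = 0.909). CDK2 measured 168, 169 and 178 CPM against 151, 142 and 151 CPM without overlap, and shares positions with PMEL on the other strand. Its log2 fold change was -0.21 (SE 0.07) at an adjusted p of 0.104, and 0.0233 with the block in a range of up to 0.296. CDC25A, the phosphatase that activates CDK2, measured 61.0, 63.2 and 48.8 CPM against 52.1, 48.6 and 34.7 CPM. Replicate 3 was lowest in both groups, and the log2 fold change of -0.35 (SE 0.16) had an adjusted p of 0.209, and 0.00377 with the block in a range of up to 0.441.

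**Figure D2:**
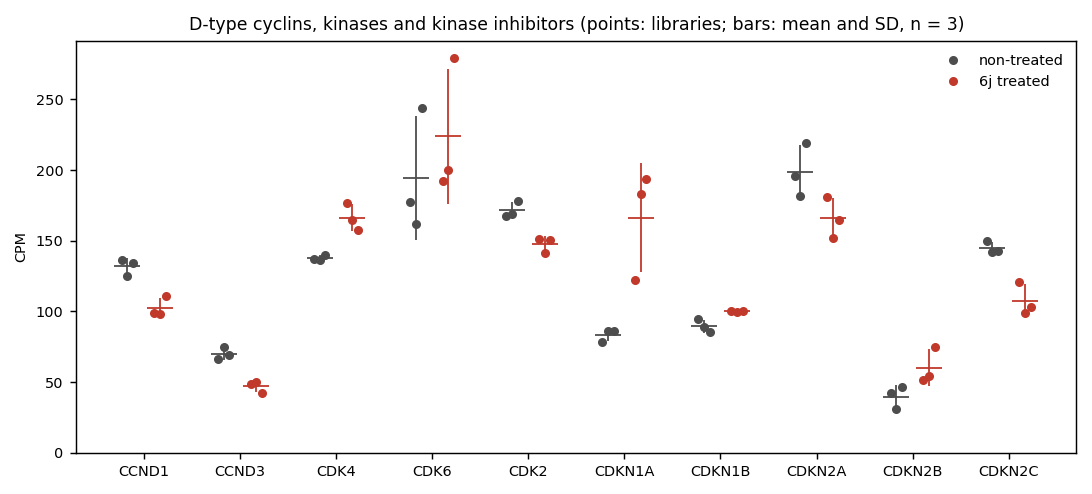
CPM of 5 cyclin and kinase genes and, for comparison, of 5 inhibitor genes that are not among the 52, with a point for each library, a horizontal bar at the mean and a vertical bar for the SD (n = 3). The 6j treated libraries of CCND1, CCND3, CDK2, CDKN2A and CDKN2C lie below the non-treated ones. Those of CDK4, CDKN1A, CDKN1B and CDKN2B lie above them, and those of CDK6 overlap them.

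The inhibitors of these kinases belong to a list of 59 other G1/S and replication genes, of which 58 were tested. CDKN1A, which encodes the inhibitor p21, was at 78.0, 85.9 and 85.9 CPM in non-treated cells and at 123, 183 and 194 CPM in 6j treated cells. It rose (log2 fold change 1.00, SE 0.16, adjusted p = 0.0113) and was the only DEG of that list in edgeR without the block. The call was lost without non-treated replicate 1 (adjusted p = 0.0642) and without 6j treated replicate 2 (adjusted p = 0.0633). CDKN2B, which encodes p15, had a log2 fold change of 0.60 and an adjusted p of 0.0901, and 0.0028 with the block in a range of up to 0.207. CDKN1B, which encodes p27, measured 89.5 ± 4.49 and 99.96 ± 0.231 CPM (SD, n = 3) at an adjusted p of 0.214. CDKN2C, which encodes p18, went the other way and fell from 144.6 ± 4.41 to 107.6 ± 11.7 CPM (log2 fold change -0.43, adjusted p = 0.0251). CDKN2A was lower too, without overlap, at 199 ± 18.7 and 165.9 ± 14.3 CPM (SD, n = 3). Its log2 fold change was -0.26 at an adjusted p of 0.128, and 0.0156 with the block in a range of up to 0.364. CDKN1C and CDKN2D, at -0.14 and -0.26, overlapped between groups and were past the threshold in neither fit.

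No gene of the E2F factors and pocket proteins was past the threshold, with or without the block. The median log2 fold change of these 5 genes was 0.05. E2F1, an activator of S phase genes, measured 40.4 ± 2.76 and 43.9 ± 5.08 CPM (SD, n = 3), a log2 fold change of 0.12 at an adjusted p of 0.531. E2F3 was at -0.08, and the pocket proteins RB1 and RBL1, which hold E2F factors silent, were at 0.06 and 0.05. E2F2 was the lowest of the 5 at -0.27, with 46.7, 52.4 and 52.3 CPM against 45.4, 44.7 and 35.8 CPM, and an adjusted p of 0.168. Its groups did not overlap, and that of the other 4 did.

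E2F factors bind a short GC-rich site near the start of many S phase genes. The sequence around the start sites, 250 bases before to 50 bases after, was searched on both strands for TTTCCCGC, TTTGGCGC, TTTCGCGC and TTTGCCGC in RefSeq (GRCh38.p14). A match is only a match of letters. Of 43 genes with such a window, 23 (53.5%) held at least 1 match, against 3.99% of 27305 genes in the same table. Of the other G1/S and replication genes 12 of 50 (24%) held one, and of 30 G2/M and mitosis genes 2 of the 24 matched (8.33%). The 6 genes printed next hold a match and lay past the threshold in at least 1 of the fits, and the match is in capitals, read 5′ to 3′ on the strand of the gene with 11 bases on either side.
CDC25A, chr3:48188443-48188472, minus strand: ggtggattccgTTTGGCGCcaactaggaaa
CDC6, chr17:40287875-40287904, plus strand: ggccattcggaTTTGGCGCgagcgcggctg
MCM7, chr7:100101388-100101417, minus strand: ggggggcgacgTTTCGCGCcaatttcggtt
LIG1, chr19:48170440-48170469, minus strand: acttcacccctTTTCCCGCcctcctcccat
UHRF1, chr19:4909476-4909505, plus strand: gccgagttttcGCGGGAAAaaaatcagagc
CLSPN, chr1:35769965-35769994, minus strand: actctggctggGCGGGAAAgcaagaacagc
CDC6 and CDC25A carry the same 8 letters, TTTGGCGC, and their fold changes had opposite signs. UHRF1 and CLSPN carry TTTCCCGC on the reverse strand, printed as GCGGGAAA. MCM7 has a second match 187 bases before its start, and UHRF1 a second one 160 bases before another of its starts.

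Lower genes were found with and without a match. Of the 23 genes that hold one, 1 was lower without the block, and 5 were lower and 1 higher with it, at a median of -0.14 on the log2 scale. Of the 20 genes that hold none, 2 were lower without the block, and 7 were lower and 2 higher with it, at a median of -0.05. Of the 8 tested genes that had no window, 1 was lower without the block, and 4 were lower and 0 higher with it, at a median of -0.18. Over all rows 4.37% were lower without the block, and 13.9% were lower and 13.1% higher with it. These counts describe the same libraries and were not tested against each other. For the 3 genes that fell and had a window, 1 window each is printed whole, and they show both cases. CCND1 fell too but had no window. CCND3 and FEN1 hold none of the searched letters and UHRF1 holds a match.
CCND3, chr6:42048639-42048938, minus strand: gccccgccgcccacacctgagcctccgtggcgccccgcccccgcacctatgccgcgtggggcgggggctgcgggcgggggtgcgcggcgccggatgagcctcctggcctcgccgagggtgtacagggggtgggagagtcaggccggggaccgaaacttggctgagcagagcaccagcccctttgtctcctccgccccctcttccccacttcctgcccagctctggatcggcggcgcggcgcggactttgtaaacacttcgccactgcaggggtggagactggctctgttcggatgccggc
UHRF1, chr19:4909251-4909550, plus strand: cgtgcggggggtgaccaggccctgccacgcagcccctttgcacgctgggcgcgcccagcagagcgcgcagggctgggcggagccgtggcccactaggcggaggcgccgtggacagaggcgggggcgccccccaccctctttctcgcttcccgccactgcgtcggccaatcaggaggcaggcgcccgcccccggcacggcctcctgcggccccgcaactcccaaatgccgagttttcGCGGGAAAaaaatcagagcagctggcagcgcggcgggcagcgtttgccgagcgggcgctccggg
FEN1, chr11:61792661-61792960, plus strand: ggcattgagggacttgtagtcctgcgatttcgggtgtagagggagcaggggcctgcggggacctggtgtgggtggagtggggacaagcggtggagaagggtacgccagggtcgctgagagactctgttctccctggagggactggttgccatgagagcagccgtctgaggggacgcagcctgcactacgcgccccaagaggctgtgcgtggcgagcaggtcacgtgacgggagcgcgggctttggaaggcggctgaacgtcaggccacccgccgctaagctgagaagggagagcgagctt

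Origin licensing genes were mixed. None of the 11 tested genes passed the threshold without the block. With it ORC1, MCM4 and MCM7 were lower (27.3%, against 13.9% of all rows) and CDC6 was higher (9.09%, against 13.1% of all rows). ORC1, the largest subunit of the origin recognition complex, measured 69.5, 61.7 and 62.8 CPM against 59.1, 53.7 and 49.9 CPM, without overlap. The log2 fold change of ORC1 was -0.25 (SE 0.09) at an adjusted p of 0.121, and 0.0117 with the block in a range of up to 0.377. CDC6, which loads the MCM ring with CDT1, moved the other way. It measured 144, 164 and 133 CPM in non-treated cells and 173, 202 and 166 CPM in 6j treated cells, where replicate 2 was highest and replicate 3 lowest in both groups. The lowest treated library was just above the highest non-treated one. The log2 fold change was 0.29 (SE 0.11) at an adjusted p of 0.122, and 0.00429 with the block in a range of up to 0.364. CDT1, at 89.95 ± 6.51 and 84.3 ± 5.30 CPM, ORC6, at 49.9 ± 0.684 and 50.3 ± 6.63 CPM, and GMNN, the inhibitor of CDT1, at 143.9 ± 13.9 and 125.3 ± 9.77 CPM (SD, n = 3), were past the threshold in neither fit.

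The 6 MCM subunits form the ring in equal parts, yet within each library the highest transcript level per length was 4.33 to 5.01 times the lowest. MCM3 was the highest in every library, at 102 to 132 CPM per kb of exon, and MCM5 or MCM6 the lowest, at 21.0 to 29.1 CPM per kb. In non-treated cells the order of mean levels was MCM3 at 127, MCM7 at 108, MCM4 at 71.3, MCM2 at 64.6, MCM6 at 28.1 and MCM5 at 27.9 CPM per kb. MCM5 and MCM6 did not differ beyond their spread. This order depends on the union exon length used to scale each gene, 7338 bp for MCM5 and 6973 bp for MCM4 but 4118 bp for MCM6 and 3650 bp for MCM3. Before scaling, mean CPM in non-treated cells put MCM4 (497) above MCM3 (464) and MCM5 (205) above MCM6 (116). The summed level of the 6 subunits was 440.1, 431 and 409.9 CPM per kb in non-treated cells and 433.6, 401 and 349 CPM per kb in 6j treated cells. Replicate 3 was lowest in each group, and the groups overlapped.

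MCM4 measured 504, 488 and 498 CPM against 474, 439 and 398 CPM, without overlap. This gave MCM4 a log2 fold change of -0.18 (SE 0.09) at an adjusted p of 0.223, and 0.0382 with the block in a range of up to 0.466. MCM7 overlapped between groups, with 500.3, 489 and 434 CPM against 474, 430.1 and 365 CPM, and shares positions with AP4M1 on the other strand. For MCM7 the log2 fold change was -0.16 (SE 0.11) at an adjusted p of 0.394, and 0.0454 with the block in a range of up to 0.751. MCM2, MCM3 and MCM5 had log2 fold changes of -0.01, -0.14 and -0.18 and MCM6 one of 0.15. Their adjusted p was 0.378 or above in edgeR without the block. With the block it was 0.868 for MCM2, 0.101 for MCM3, 0.0586 for MCM5 and 0.252 for MCM6.

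**Figure D3:**
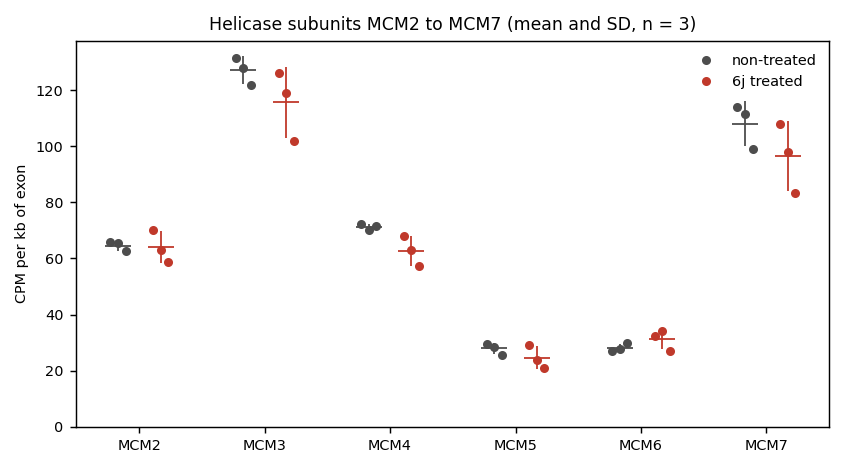
CPM per kb of exon of the 6 helicase subunits, with a point for each library, the mean as a horizontal bar and the SD as a vertical bar (n = 3). Scaled by length, MCM3 and MCM7 are the highest and MCM5 and MCM6 the lowest in both groups, and the spread is wider in 6j treated cells for each subunit.

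Among the 8 genes of origin firing MCM10 was lower past the threshold, with the block only (12.5%, against 13.9% of all rows). MCM10 helps to assemble the active helicase, and it measured 69.1, 76.2 and 64.9 CPM against 63.4, 63.2 and 50.4 CPM. Every treated library was below every non-treated one, and the log2 fold change of -0.25 (SE 0.11) had an adjusted p of 0.192, and 0.0145 with the block in a range of up to 0.45. The 4 GINS subunits, GINS1 to GINS4, were at -0.08, -0.18, -0.13 and -0.10, and CDC45, their partner in the helicase, was at -0.08 (SE 0.17). CDC45 was at 46.2 CPM in non-treated replicate 3 and 37.4 CPM in 6j treated replicate 3, the lowest library of each group. CDC7, the kinase that triggers firing, was level at 54.9 ± 1.79 and 54.9 ± 4.75 CPM, and its activator DBF4 was at 32.7 ± 1.05 and 36.5 ± 4.34 CPM (SD, n = 3).

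No gene of the clamp and its loader was past the threshold in either fit. PCNA, the ring that holds the polymerases on DNA, measured 314, 317 and 319 CPM in non-treated cells and 307, 293 and 245 CPM in 6j treated cells. The non-treated libraries lay within a narrow band and replicate 3 of the treated ones was the lowest. The mean went from 215.4 ± 1.49 to 191.4 ± 22.0 CPM per kb of exon (SD, n = 3), a log2 fold change of -0.17 at an adjusted p of 0.302. The loader subunits RFC1 to RFC5 were at 0.08, -0.03, -0.17, 0.05 and -0.07 on the log2 scale. RFC3, at -0.17, measured 88.9 ± 1.68 and 78.8 ± 4.44 CPM without overlap and had an adjusted p of 0.191.

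The polymerase and primase genes had 4 negative and 1 positive fold changes. POLD1, the catalytic subunit of polymerase delta, which copies the lagging strand, measured 146, 144 and 124 CPM against 128, 115 and 95.5 CPM. Replicate 3 was lowest in both groups, and the groups overlapped. For POLD1 the log2 fold change was -0.29 (SE 0.12) at an adjusted p of 0.153, and 0.00641 with the block in a range of up to 0.39, and its exons overlap AC020909.1 on the same strand. PRIM2, a subunit of the primase that starts each fragment, measured 44.6, 50.2 and 45.7 CPM against 39.3, 43.1 and 36.4 CPM. Without overlap between groups its log2 fold change was -0.24 (SE 0.10) at an adjusted p of 0.153, and 0.0304 with the block in a range of up to 0.379. The other primase subunit, PRIM1, was at 0.03, and its exons overlap NACA and AC117378.1 on the same strand and HSD17B6 on the other. POLA1, of the polymerase that extends the primer, was at -0.15, and POLE, the leading strand polymerase, was at -0.14, both past the threshold in neither fit.

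All 5 genes of Okazaki fragment processing and single-strand binding had negative fold changes, with a median of -0.27. FEN1 cuts the flap at the end of each fragment (ENSG00000168496, chr11:61792637-61797244, plus strand). Its level was 207, 221 and 206 CPM in non-treated cells and 183, 168 and 167 CPM in 6j treated cells. The groups did not overlap, and the mean went from 211 ± 8.5 to 173 ± 9.4 CPM (SD, n = 3). FEN1 fell 1.22-fold (log2 fold change -0.29, SE 0.08), just inside the threshold at an adjusted p of 0.0498, and 0.00629 with the block. The call was lost in 5 of the 6 fits that left out a library, with an adjusted p of up to 0.176 without 6j treated replicate 2, and held without 6j treated replicate 1. It was also lost with no filter on low counts (adjusted p = 0.0599) and with Ensembl rows only (adjusted p = 0.0513). Its exons overlap those of FADS2 on the same strand and of TMEM258 on the other strand.

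LIG1, the ligase that seals the fragments, measured 122, 114 and 107 CPM against 111, 91.6 and 89.3 CPM, and the groups overlapped. For LIG1 the log2 fold change was -0.24 (SE 0.10) at an adjusted p of 0.175, and 0.0156 with the block in a range of up to 0.447. The 3 subunits of RPA coat the single strands at the fork. RPA1 measured 225, 204 and 256 CPM against 182, 179 and 208 CPM, with replicate 3 highest and replicate 2 lowest in both groups. Its log2 fold change was -0.27 (SE 0.10) at an adjusted p of 0.139, and 0.0071 with the block in a range of up to 0.363, and it shares positions with SMYD4 on the other strand. RPA3 measured 27.0, 28.5 and 33.0 CPM against 22.4, 24.3 and 22.4 CPM, without overlap. The log2 fold change of RPA3 was -0.36 (SE 0.11) at an adjusted p of 0.073, and 0.019 with the block in a range of up to 0.207, with DESeq2 at 0.0461, and it shares positions with UMAD1 on the other strand. RPA2 was at 61.2 ± 1.73 and 56.8 ± 6.87 CPM (SD, n = 3) with an adjusted p of 0.555.

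UHRF1 reads hemimethylated DNA behind the fork and brings in DNMT1 (ENSG00000276043, chr19:4903080-4962154, plus strand). It measured 138, 139 and 142 CPM in non-treated cells and 117, 99.3 and 101 CPM in 6j treated cells, with no overlap. The non-treated libraries were close together, and the mean went from 139.5 ± 2.09 to 105.6 ± 9.61 CPM (SD, n = 3). UHRF1 fell 1.32-fold (log2 fold change -0.40, SE 0.09, adjusted p = 0.0233). The call was lost in 5 of the 6 fits that left out a library, with an adjusted p of up to 0.113 without 6j treated replicate 2, and held without 6j treated replicate 1. CLSPN encodes claspin, which passes the replication stress signal to CHEK1. It measured 73.4, 75.3 and 61.3 CPM against 60.2, 65.1 and 49.3 CPM, with overlap. The log2 fold change of CLSPN was -0.27 (SE 0.12) at an adjusted p of 0.205, and 0.00656 with the block in a range of up to 0.453. CHAF1A, which places histones on new DNA, was at 129.7 ± 7.56 and 126.7 ± 9.65 CPM.

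**Figure D4:**
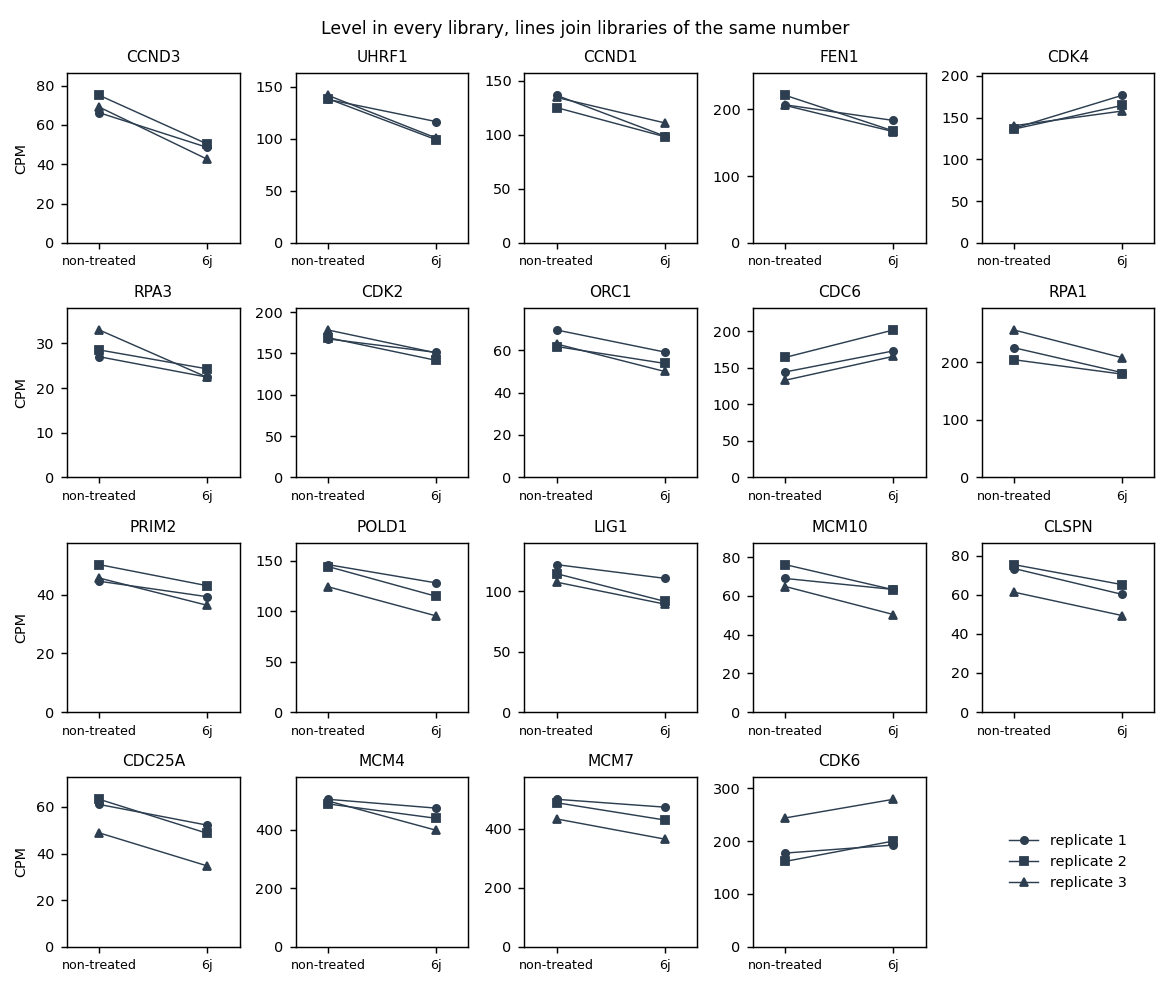
CPM in each library of the 19 genes past the threshold without or with the replicate block, with a line joining the non-treated and 6j treated libraries of the same number. All 3 lines fall for 16 genes and rise for CDK4, CDK6 and CDC6, including the genes whose groups overlap. The fit with the block favours genes whose differences agree across numbers, so this agreement follows in part from how the genes were chosen.

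Replicate 3 was often the lowest library in these genes, above all in 6j treated cells. It was lowest in both groups for 22 of the 51 genes (43.1%), against 21.9% of all rows tested. Replicate 1 was lowest in both groups for 2 genes (3.92%, against 14.2% of all rows) and replicate 2 for 5 (9.8%, against 13.8%). Among 6j treated libraries replicate 3 was lowest for 38 of the 51 genes (74.5%, against 38% of all rows), and among non-treated ones for 22 (43.1%, against 37.2%). What a replicate number stands for is not given in the labels.

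Of the 58 other G1/S and replication genes tested 4 fell (6.90%, against 4.37% of all rows), CDK1, CDKN2C, CCNA2 and POLD2, and 1 rose, CDKN1A (1.72%, against 4.79%). CDK1, the mitotic kinase that also acts late in S phase, went from 198.2 ± 8.05 to 144 ± 11.3 CPM (log2 fold change -0.46, adjusted p = 0.0142). CCNA2, the cyclin of S phase, went from 138.1 ± 5.53 to 107.2 ± 6.21 CPM (log2 fold change -0.36, adjusted p = 0.0254), and shares positions with EXOSC9 on the other strand. POLD2, a subunit of polymerase delta beside POLD1, went from 298.5 ± 18.3 to 233.7 ± 21.1 CPM (log2 fold change -0.35, adjusted p = 0.0468, SD, n = 3). Each of these calls was lost without non-treated replicate 1, with an adjusted p of 0.0679, 0.127 and 0.172, and that of CDKN2C with 0.117. All were also lost without non-treated replicate 2 and without 6j treated replicate 2, and all held without 6j treated replicate 1. Without non-treated replicate 3 only CDK1 held, and without 6j treated replicate 3 only CDK1 and CCNA2 did.

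With the block 15 of the 58 were lower (25.9%, against 13.9% of all rows) and 4 higher (6.90%, against 13.1%), and the median log2 fold change of the list was -0.09. The 11 lower genes added by the block were RNASEH2A, CHTF18, RECQL4, DNMT1, CDKN2A, ASF1B, TIMELESS, TIPIN, MYBL2, MSH6 and TICRR. The 3 higher ones were CDKN2B, LIN54 and E2F7. RNASEH2A and CDKN2B were also past the threshold in DESeq2 without a block (adjusted p = 0.0211 and 0.0101). DNMT1, the methyltransferase that UHRF1 brings to the fork, had a log2 fold change of -0.23, an adjusted p of 0.18, and 0.0127 with the block in a range of up to 0.414. E2F7, a repressor of E2F target genes, was at 0.24 with an adjusted p of 0.0868, and 0.022 with the block in a range of up to 0.277.

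For comparison, 6 of 30 G2/M and mitosis genes fell (20.0%, against 4.37% of all rows) and none rose, at a median of -0.20 on the log2 scale, and 29 of 30 had negative values. With the block 17 were lower (56.7%, against 13.9% of all rows). All 3 libraries of 6j treated cells lay below the 3 of non-treated cells for 18 (60%, against 15.8% of all rows). The smallest adjusted p among them belonged to KIF20A, a kinesin of cytokinesis (log2 fold change -0.58, adjusted p = 0.0085), and CCNB1, which encodes cyclin B1 (log2 fold change -0.50, adjusted p = 0.00957). The call of CCNB1 was lost without non-treated replicate 1 (adjusted p = 0.0541) and without 6j treated replicate 2 (adjusted p = 0.0532), and the count of 6 became 1 without each of these libraries. The difference between this list and the 51 genes was not tested.

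**Figure D5:**
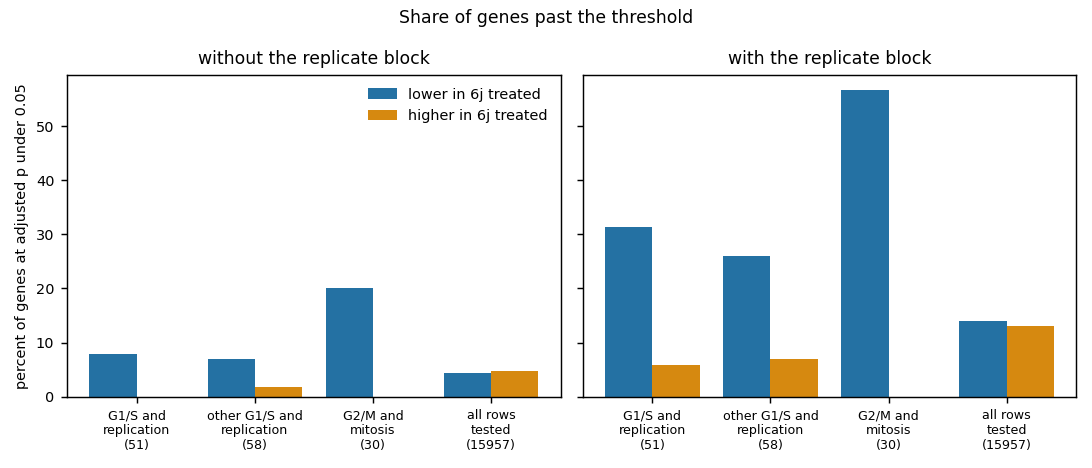
Percent of genes lower or higher in 6j treated cells at an adjusted p under 0.05 in edgeR, in 3 lists and in all 15957 rows tested, without the replicate block (left) and with it (right). Lower genes make up 7.84% and 31.4% of the 51 G1/S and replication genes against 4.37% and 13.9% of all rows.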

How the data were processed

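Per the labels, poly(A) RNA of MHCC-97H cells was fragmented and made into cDNA libraries, and the submitters' processing notes name HISAT2, StringTie and GRCh38 without versions. The deposited table holds raw counts for 6 libraries, 31533403 to 38018349 in total, all whole numbers, and whether they are reads or rounded estimates is not given in the sources used here. Of 25445 rows, 5471 are new genes of their assembly and 19974 have Ensembl identifiers, all found in GENCODE 29, which gave coordinates and exon lengths.

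From the counts, edgeR 4.0.16 (R 4.3.3) computed TMM factors after filterByExpr (minimum count 10, total 15) and ran its robust quasi-likelihood test with no covariate. Adjusted p-values (Benjamini-Hochberg over 15957 rows, 2-sided) under 0.05 count as past the threshold, and DEGs also change more than 1.5-fold. Standard errors (SE) were worked back from the quasi-likelihood test, as the absolute log2 fold change divided by the square root of its F statistic. CPM use TMM library sizes. Deviations from group means correlated at 0.171, 0.18 and 0.312 between libraries of the same number and at -0.231 to 0.0795 otherwise, so a fit with the replicate number as a block was set beside the main one. Alternatives were that block, RLE and upper-quartile factors, no filter, DESeq2 1.42.0, Ensembl rows only and each library left out. The script was tested on simulated data. The simulated libraries shared no effect of replicate number, so they cannot show how the block fit behaves where there is one.

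Genes given in full were those past the threshold in either fit. The 52 genes, the lists and the sequence rule were chosen with earlier results of these data known. Promoter windows are those of the RefSeq table, in which 43 of the 52 genes matched. Windows printed whole are those of the genes that fell and had one, which leaves out CCND1.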

Additional observations from a re-analysis of the deposited data

How the results depend on the processing

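The median log2 fold change of the 51 genes was -0.17 to -0.08 over the alternatives, with -0.08 when 6j treated replicate 3 was left out. Of the 51 genes 4 were lower and 0 higher, and with the replicate block 16 and 3. DESeq2 called 5 lower and 1 higher (CDK4), and Ensembl rows alone 3 lower and 1 higher (CDK4). With no filter on low counts 3 were lower, and the call lost there and with Ensembl rows alone was that of FEN1. Leaving out a library left 1 to 4 lower genes, and 0 to 1 DEGs, which was CCND3 without non-treated replicate 1, 6j treated replicate 1 or 6j treated replicate 2. For the other G1/S and replication genes the lower count of 4 became 15 with the block and 0 to 7 with a library left out. Their higher count of 1 became 2 with DESeq2, 4 with the block and 0 to 2 with a library left out, and their 1 higher DEG became 2 with DESeq2, 2 with the block and 0 to 1. For the G2/M and mitosis genes the lower count of 6 became 13 with DESeq2, 17 with the block and 1 to 8 with a library left out, and their 0 DEGs became 1 with upper-quartile factors and 0 to 2. The block changed the calls named in the report and the counts given here, and why the counts move was not tested.

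Genes near zero changed sign, and none of them was past the threshold. CDC7 was at -0.0062 with upper-quartile factors, at -2.67e-05 with DESeq2, at -0.0019 with the replicate block and from -0.038 to 0.072 with a library left out. MCM2 was at 0.0021 with Ensembl rows only. With a library left out MCM2 ran from -0.084 to 0.043, CCNE2 from -0.078 to 0.031, RB1 from -0.0075 to 0.116, ORC6 from -0.098 to 0.084, CDC45 from -0.215 to 0.099, RFC2 from -0.068 to 0.031, PRIM1 from -0.040 to 0.078 and CHAF1A from -0.086 to 0.024. With 3 libraries per group, the median standard error of 0.09 limits how small a change can be told from none.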

Other observations

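KRT8, an epithelial keratin, measured 516, 653 and 646 CPM in non-treated cells and 385, 369 and 457 CPM in 6j treated cells (log2 fold change -0.58, adjusted p = 0.0211). Its call was lost without non-treated replicate 2 or 3 and without 6j treated replicate 1 or 2, with an adjusted p of up to 0.108. KRT18, its partner, measured 430 ± 36.3 and 344 ± 23.1 CPM (SD, n = 3). The log2 fold change of KRT18 was -0.32 at an adjusted p of 0.0661, and 0.00168 with the block in a range of up to 0.186. KRT8 and KRT18 share exon positions on opposite strands, so their reads cannot be told apart there. Of the 11 markers of a liver carcinoma line TTR and EPCAM were at 0 in all libraries, and the summed level ran from 904 to 1109 CPM in non-treated and from 705 to 824 CPM in 6j treated cells. Of 6 fibroblast markers COL1A2 was at 0 in every library, and the sum, mostly COL1A1, ran from 269 to 329 and from 248 to 315 CPM. The 4 endothelial markers summed to 2.18 to 6.25 and 1.86 to 4.03 CPM. Of 5 leukocyte markers PTPRC, CD3E and MS4A1 were at 0, and the sum of 40.4 to 70.8 and 42.5 to 53.1 CPM was mostly CD68. Whether these levels have a part in the results for the G1/S and replication genes was not tested.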
